A study of Mus musculus with 7 samples.

Results

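Chromatin accessibility was examined around 8 microRNA genes of the islet, Mir375, Mir7-1, Mir7-2, Mir7b, Mir184, Mir204, Mir141 and Mir200c, in sorted mouse alpha, beta and delta cells. The genes were taken by name from the 2202 miRNA genes of the GENCODE annotation, and every ATAC-Seq peak that overlapped a hairpin or the 10 kb on either side of it was kept. These windows held 156 of the 1190565 distinct peaks of the 7 libraries. Mir141 and Mir200c lie 405 bp apart and share most of their window, so the 8 genes gave 7 separate windows. A further 19 genes, Mir141 and Mir200c among them since each lies in the other's window, overlapped the windows, and 10 of them were protein-coding.

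The islets came from healthy triple transgenic mice, in which mIns1-H2b-mCherry marks beta cells and Rosa-LSL-YFP is switched on by Gcg-Cre in alpha cells or by Sst-Cre in delta cells. Every group thus carried the mCherry and YFP transgenes and a Cre driver, animals were pooled by sex before sorting, and the labels do not give ages or say which cross each beta library came from. There were 2 alpha, 3 beta and 2 delta libraries, all labelled as biological replicates. The study's methods place the cell types in the same animals, but alpha and delta cells came from the separate Gcg-Cre and Sst-Cre crosses. Those 2 cell types therefore shared no animals, and a difference between them cannot be told apart from one between the crosses. The labels do not tie libraries to animals, so the tests took the libraries as independent. The p-values measure the spread between these libraries only.

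A microRNA is cut from a hairpin transcript by the nuclease Drosha and then by Dicer, and is loaded into an Argonaute protein, where bases 2 to 8 of its 5′ end, the seed, pair with target mRNAs. miR-375 is among the most abundant microRNAs of islet endocrine cells and restrains insulin secretion, a role ascribed to its 3p arm, miR-375-3p. miR-7 is another islet-enriched microRNA, miR-184 is known in beta cells as a regulator of Ago2, miR-204 is linked to insulin production through MafA, and miR-141 and miR-200c belong to the miR-200 family, which holds cells in an epithelial state by repressing Zeb1 and Zeb2.

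RefSeq entries (GRCm38.p6) matched all 8 hairpins, at the same start and end as in GENCODE. The mature sequences below are printed 5′ to 3′ with the seed in capitals, to show which of the loci give products with a common seed.
miR-375-5p (Mir375): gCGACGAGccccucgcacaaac
miR-7a-5p (Mir7-1 and Mir7-2): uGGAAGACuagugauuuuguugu
miR-7b-5p (Mir7b): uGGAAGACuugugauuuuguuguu
miR-184-3p (Mir184): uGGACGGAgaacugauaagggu
miR-204-5p (Mir204): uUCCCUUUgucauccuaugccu
miR-141-3p (Mir141): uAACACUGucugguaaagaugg
miR-200c-3p (Mir200c): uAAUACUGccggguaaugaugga

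Mir7-1 and Mir7-2, on chromosomes 13 and 7, code for the same mature miR-7a-5p. The product of Mir7b on chromosome 17 shares its seed, and over the 23 bases compared it differed only by A10U, counted from the 5′ end of miR-7a-5p. miR-141-3p and miR-200c-3p differed by C4U, U9C, U11G and A17U, of which the change at base 4 lies in the seed. The seed of miR-141-3p was shared with miR-200a-3p alone among the 1679 distinct mature microRNAs of the RefSeq table, and that of miR-200c-3p with miR-200b-3p and miR-429-3p. The loci therefore formed a miR-7 group of 3 genes with 1 seed, a neighbouring pair with 2 seeds, and 3 genes whose printed seeds no other of the 8 loci shared. In the whole table the seed of miR-204-5p was also that of miR-211-5p and miR-7670-3p.

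The lists differed in length. They held between 75860 distinct peaks in delta 2 and 518503 in beta 1, and 25903 to 38058 peaks of a beta list, 49047 to 52057 of an alpha list and 41683 to 47042 of a delta list reached a -log10 q of 2, q being the false discovery rate that MACS2 estimates. Such peaks are called strong peaks here. The file of each of the 3 beta libraries is named for a different cell type, alpha or delta, and was used here as its label says, and beta 1 stood apart by its number of weak peaks. Strong peaks at the transcript start were found in both alpha replicates at 6 of 6 alpha marker genes. At these genes they were also found in at least 2 beta replicates at 2 of 6 and in both delta replicates at 3 of 6. Beta marker genes had them in at least 2 beta replicates at 4 of 7, in both alpha replicates at 2 of 7 and in both delta replicates at 3 of 7. Of those, Nkx6-1 and Mafa had them in all 7 libraries. Delta marker genes had them in both delta replicates at 3 of 4, in both alpha replicates at 3 of 4 and in at least 2 beta replicates at 0 of 4. Ins2 and Slc2a2 had no such peak in any library, and Sst had one in beta 1 only. None of the 5 acinar, 3 endothelial, 2 immune and 2 mesenchymal marker genes had one in more than 1 replicate of any cell type, and of the 3 duct markers only Cftr did, in both delta replicates.

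Because each list was scaled to its own library, a locus was described by the rank of its strongest peak, with rank 1 for the lowest p of a list. A rank also depends on how many strong peaks its list holds, and the beta lists held the fewest. Ranks past the length of the shortest list, and windows without a peak, were set to a rank limit of 75861. Differences between cell types were tested on log10 ranks by an exact permutation test over all 210 ways to assign the libraries, which has no direction and cannot give a p below 0.00952.

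All 8 windows held a strong peak in both alpha replicates, where 38.2% of all miRNA genes did. Such a peak was found in at least 2 beta replicates at 7 of 8 windows against 29.1% of all miRNA genes, the exception being Mir204, and in both delta replicates at 7 of 8 against 34.7%, the exception being Mir184. In 6 of 8 windows it was found in all 7 libraries, against 19.2% of all miRNA genes and 31.1% of the transcript starts of protein-coding genes. Mir141 and Mir200c had the same strongest peak and were counted separately, as neighbouring genes were among all miRNA genes. At Mir7-2, Mir141 and Mir200c the strongest peak was the promoter of a neighbouring protein-coding gene. At Mir7-1 it lay over transcript starts of Rmi1 and of Hnrnpk, whose intron carries the hairpin. These counts therefore do not describe the microRNA genes alone. At 1 of 8 genes, Mir200c, replicates of the same cell type had a peak over the hairpin itself, as 8.04% of all miRNA genes did.

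**Figure D1:**
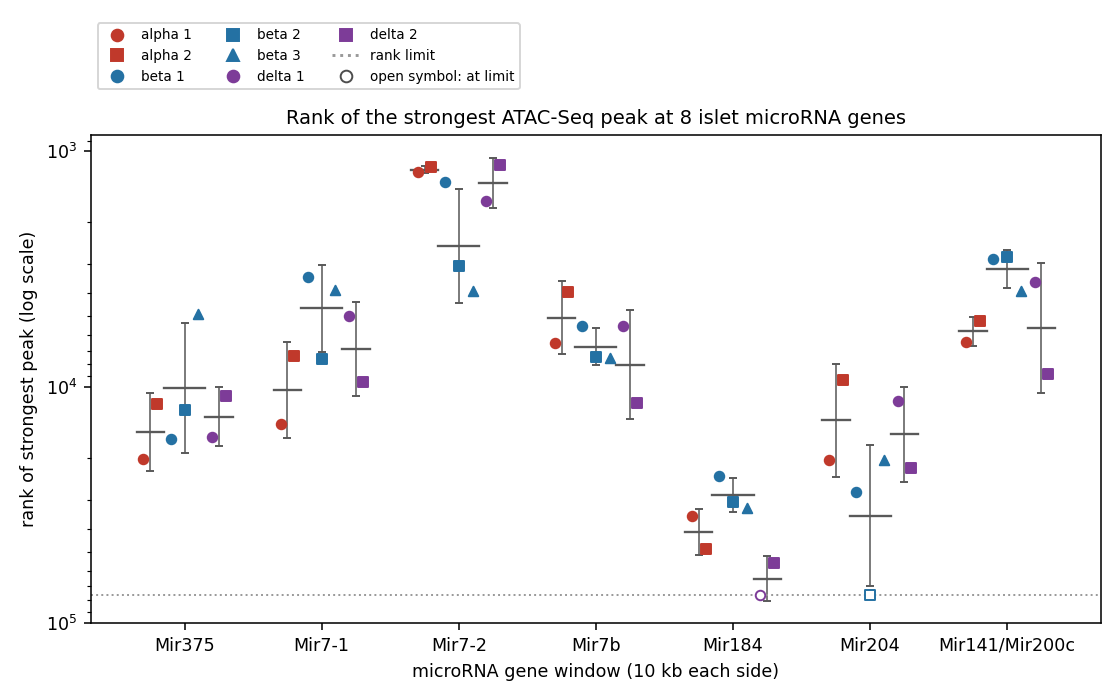
Rank of the strongest peak in the 10 kb window of each microRNA gene, on a log axis with stronger peaks at the top, for each of the 7 libraries. Horizontal lines are the mean of log10 ranks of a cell type and bars its SD (n = 2, 3 and 2), and open symbols lie at the rank limit of 75861. Mir7-2 had the strongest peaks by median rank, between ranks 1142 and 3895, and Mir184 the weakest. The 3 cell types did not overlap at Mir184, and the share of all miRNA genes without overlap was not counted.

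Across the 1962 miRNA genes with a peak inside the rank limit in any library, 7.19% reached a p of at most 0.05 and 0.0% did after Benjamini-Hochberg adjustment. Among the 8 islet genes 1 reached it, Mir184, and its adjusted p was 0.566. At the other 7 genes the exact permutation p ran from 0.152 to 0.743, so a difference between cell types was not shown there.

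Mir375 (chr1:74900658-74900721, minus strand, mm10) lies between the genes Cryba2, which codes for a crystallin, and Cfap65, which codes for a protein of cilia and flagella. A region that spans the hairpin when the libraries are merged, with its summit 190 bp upstream of the hairpin's 5′ end, was called in all 7 libraries with a -log10 q above 2. Its peak ranked 20230 and 18830 in alpha cells, 16647, 12530 and 4914 in beta cells, and 18178 and 10893 in delta cells. Its fold enrichment over the local background was 4.92 and 5.02 in alpha cells, 4.73, 5.62 and 10.3 in beta cells, and 5.77 and 8.18 in delta cells. The highest fold enrichment was that of beta 3 and the lowest that of beta 1, so the beta libraries spanned the alpha and delta libraries, and the exact permutation p of the ranks was 0.314. A called peak reached over the hairpin in 3 libraries, 1 of each cell type.

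The sequence of 200 bases around this summit is shown because it is the open chromatin closest to a member hairpin in all 7 libraries. It is printed on the strand of Mir375, and capitals mark matches to CACCTG or its reverse complement CAGGTG, the E-box form bound by Zeb1 and Zeb2.
Mir375 upstream region (chr1:74900811-74901010, minus strand, mm10): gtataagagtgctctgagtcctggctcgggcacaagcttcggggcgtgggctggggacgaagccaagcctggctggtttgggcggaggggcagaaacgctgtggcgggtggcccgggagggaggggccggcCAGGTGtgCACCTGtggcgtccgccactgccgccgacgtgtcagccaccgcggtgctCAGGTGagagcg

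It held CACCTG at 3 places, and 70.0% of its bases were G or C. Over the 2576 regions of at least 2 libraries in the windows of all miRNA genes, 18.4% of equally long summit sequences held CACCTG on either strand, and the median share of G and C was 53.0%. The other motifs searched on both strands, CAGATG of the NeuroD type, TGTTTAC of forkhead factors and TAATTA of homeodomain factors, did not match here and were held by 13.8%, 3.61% and 3.49% of the regions.

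The remaining regions of the Mir375 window were less evenly called. The region 1652 bp upstream, over the start of the antisense transcript Gm15841 and an exon of Cfap65, was called in every library but beta 2. Its ranks were 30843 and 12666 in alpha cells, 78086 and 25048 in beta 1 and beta 3, and 16289 and 29942 in delta cells (exact permutation p = 0.257). A region 3745 bp downstream was called in both alpha libraries, at ranks 25114 and 39266, and in delta 1 at rank 30369, and no beta list held it (exact permutation p = 0.162). The region 7467 bp downstream, at the transcript start of Cryba2, ranked 24175 and 11849 in alpha cells and 64790 in delta 1, and was in no beta list. Here the alpha libraries did not overlap the others, with an exact permutation p of 0.0381, which over all regions adjusted to at least 0.596.

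The 3 genes of the miR-7 family lie in different surroundings. Mir7-1 (chr13:58392779-58392886, minus strand) sits in an intron of Hnrnpk, which codes for an RNA-binding protein and is read from the same strand. Its strongest peak in every library lay between 9284 and 9652 bp upstream of the hairpin, in a region over transcript starts of Hnrnpk and of Rmi1, a gene of genome stability read the other way. That peak ranked 14312 and 7356 in alpha cells, 3405, 7571 and 3873 in beta cells, and 4971 and 9533 in delta cells, and its fold enrichment ran from 6.55 in alpha 1 to 11.9 in beta 3. The cell types overlapped (exact permutation p = 0.286).

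Between this promoter and the far side of the hairpin the chromatin around Mir7-1 held few calls. The only region within 5 kb of the hairpin that was called more than once lay 1431 bp upstream, in both delta libraries at ranks 81971 and 67461, and its -log10 q of 0.951 and 0.795 was low. Downstream, the promoter of 2210016F16Rik was called in every library but beta 2, at ranks from 27475 in beta 3 to 167190 in beta 1, and the exact permutation p was 1.0. A region 9179 bp downstream was called in alpha 1 at rank 32413 and in beta 1 at rank 167189.

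Mir7-2 (chr7:78888277-78888373, plus strand) lies between genes, with the nearest annotated start, that of the apoptosis-enhancing nuclease gene Aen, 7577 bp downstream. The promoter of Aen gave the strongest peak of all the windows by median rank. It ranked 1225 and 1164 in alpha cells, 1352, 3057 and 3895 in beta cells, and 1617 and 1142 in delta cells, with fold enrichments between 10.5 in beta 2 and 20.3 in delta 1. Alpha and delta libraries lay close together and beta 1 lay among them (exact permutation p = 0.152).

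Around the Mir7-2 hairpin itself there were 5 further regions, none near an annotated transcript start, which was more than at any other locus. The region 2684 bp upstream was shared by the cell types, being called in all libraries except delta 2, at ranks 36545 and 18561 in alpha cells, 71936, 13196 and 21707 in beta cells and 21612 in delta 1. Its exact permutation p was 0.848, and its summit sequence is shown because, of the regions of the miR-7 group that lie away from a transcript start and were called in at least 6 libraries, it is the nearest to a hairpin.
Mir7-2 upstream region (chr7:78885493-78885692, plus strand, mm10): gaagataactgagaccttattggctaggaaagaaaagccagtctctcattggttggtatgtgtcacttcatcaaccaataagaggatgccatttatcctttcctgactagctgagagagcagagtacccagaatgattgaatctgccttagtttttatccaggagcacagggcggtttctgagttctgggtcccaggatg

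None of the 4 motifs matched in it, and 45.0% of its bases were G or C. Further upstream, the region at 9680 bp was called in all 7 libraries, at ranks from 9788 to 14036 in alpha cells, 12633 to 79316 in beta cells and 11415 to 21363 in delta cells (exact permutation p = 0.2).

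The other 3 regions of Mir7-2 were called in no beta list. The region 5699 bp upstream ranked 40041 and 30657 in alpha cells and 46162 and 74354 in delta cells. The region 1575 bp downstream ranked 39837 and 52829 in alpha cells and 47207 and 40015 in delta cells. The region 2533 bp downstream ranked 31271 and 31831 in alpha cells and 38707 in delta 2. Their fold enrichments were modest, from 2.63 to 4.46, and the exact permutation p values were 0.0381, 0.0286 and 0.0667, none of them below 0.596 after adjustment over all regions. Within a window of 2 kb around the hairpin only the region at 1575 bp was called, and the exact permutation p for the locus was 0.0286 there, against 0.962 in a 5 kb window and 0.152 in the 10 kb window.

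**Figure D2:**
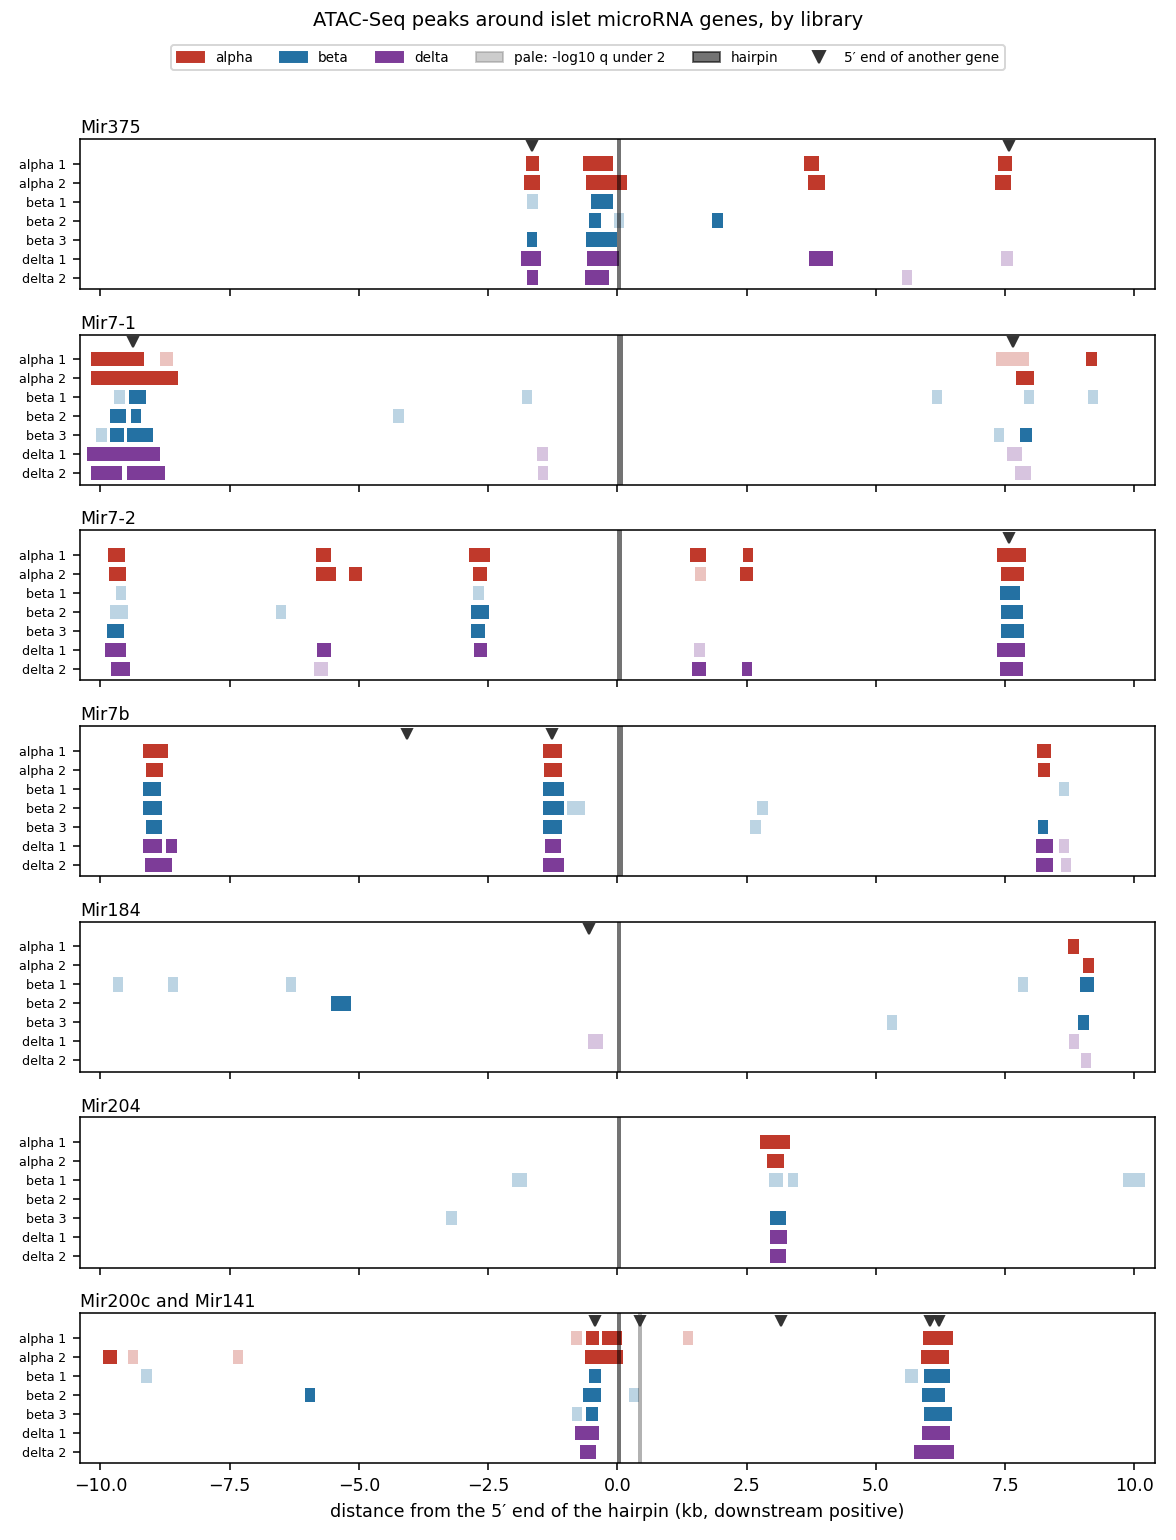
Peaks in the windows of the microRNA genes, 1 row for each library, drawn by distance from the 5′ end of the hairpin in kb with downstream positive. Colours give the cell type, pale bars have a -log10 q under 2, black lines are the hairpins and triangles the 5′ ends of other genes. Calls align in all 7 libraries just upstream of Mir375 and Mir200c and over the promoters near Mir7-1, Mir7-2 and Mir7b, while 3 regions around Mir7-2 lack a call in every beta library.

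Mir7b (chr17:56242988-56243098, plus strand) has the long non-coding RNA AC026385.1 just upstream on the same strand, its 5′ end 1272 bp from that of the hairpin. The region at that start, with its summit 1247 bp upstream of the hairpin, was called in all 7 libraries. It ranked 6523 and 3939 in alpha cells, 5480, 9884 and 7500 in beta cells, and 5519 and 13301 in delta cells. The fold enrichment was 11.6 and 15.3 in alpha cells, 8.0, 6.34 and 9.38 in beta cells, and 14.4 and 8.02 in delta cells. The ranks overlapped between the cell types, with an exact permutation p of 0.486.

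The summit sequence of this region is shown because it covers the annotated start of a transcript that lies just upstream of the hairpin on the same strand.
Mir7b upstream region (chr17:56241641-56241840, plus strand, mm10): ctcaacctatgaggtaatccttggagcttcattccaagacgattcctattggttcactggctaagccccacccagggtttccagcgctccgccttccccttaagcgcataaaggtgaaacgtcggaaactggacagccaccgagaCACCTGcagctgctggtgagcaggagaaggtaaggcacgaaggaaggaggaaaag

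It held CACCTG once and none of the other motifs, and 54.0% of its bases were G or C. A further region 9022 bp upstream was called in all 7 libraries as well, at ranks from 7444 in beta 2 to 27858 in alpha 1, and in beta 2 and delta 2 it was the strongest peak of the window (exact permutation p = 0.276).

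Downstream of Mir7b, the region at 8260 bp was called in both alpha and both delta libraries, at ranks from 13974 to 25705, and in beta 3 alone of the beta libraries, at rank 36584. All alpha and delta ranks were thus stronger than that of any beta library, with an exact permutation p of 0.0952. The region at 2745 bp was the only one of the windows called in at least 2 beta and no alpha or delta libraries, at rank 75848 in beta 2 and 38726 in beta 3, and neither call had a -log10 q of 2.

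Mir184 (chr9:89802260-89802328, minus strand) lies 542 bp from the start of the long non-coding RNA 1700017I07Rik, which is read from the opposite strand. Of the 8 loci it had the weakest peaks by median rank. Its strongest peak ranked 23797, 30597 and 32654 in beta cells, 35136 and 48434 in alpha cells, and 55750 in delta 2, and in delta 1 it lay past the rank limit. In fold enrichment these peaks measured 3.57, 3.91 and 4.02 in beta cells, 4.5 and 3.67 in alpha cells, and 2.87 and 3.36 in delta cells. The mean log10 rank was 4.46 ± 0.073 (SD, n = 3) in beta cells, 4.62 ± 0.099 (SD, n = 2) in alpha cells and 4.81 ± 0.095 (SD, n = 2) in delta cells. In ranks the beta libraries were the strongest and the delta libraries the weakest without overlap, at an exact permutation p of 0.019. The -log10 q was 2.34, 2.29 and 2.57 in beta cells, 3.3 and 2.03 in alpha cells, and 0.951 and 1.93 in delta cells. In fold enrichment and in -log10 q the alpha and beta libraries overlapped, and alpha 1 was the highest in both.

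These peaks did not share a position. Most belonged to a region 9082 bp downstream, called in 6 libraries, whereas that of beta 2 lay 5295 bp upstream and that of delta 1 lay 387 bp upstream. Tested alone, the region at 9082 bp had an exact permutation p of 0.467. The p for the locus was 0.0556 when libraries were permuted only within sex, where the smallest possible is 0.0278, and 0.0571 by percentile within a list, so the call was lost in both. It was 0.0833 without delta 1, with delta 2 then alone for its cell type, and 0.0667 without any 1 of the beta libraries, beta 1 included, which is the smallest that 2 libraries of each cell type can give. Neither the 5 kb nor the 2 kb window around Mir184 held a peak inside the rank limit.

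Mir204 (chr19:22750605-22750672, plus strand) is carried in an intron of Trpm3, a gene for a cation channel, far from its annotated start. A single region, 3064 bp downstream of the hairpin and still in the intron, was called in 6 libraries and gave the strongest peak in each. It ranked 20431 and 9372 in alpha cells, 27826 and 20465 in beta 1 and beta 3, and 11408 and 22044 in delta cells. The fold enrichment was 6.34 and 11.1 in alpha cells, 3.39 and 4.82 in beta 1 and beta 3, and 10.5 and 5.74 in delta cells. The beta values were the lowest in fold enrichment but overlapped the others in rank, and beta 2 had no peak in the whole window. The exact permutation p was 0.276.

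Mir200c (chr6:124718322-124718390, minus strand) and Mir141 (chr6:124717914-124717985, minus strand) lie in the transcript Gm15884, which is annotated as antisense and starts 441 bp upstream of Mir200c. A region with its summit 499 bp upstream of Mir200c covered this start and was called in all 7 libraries with a -log10 q above 2. It ranked 39015 and 26990 in alpha cells, 17616, 29504 and 14053 in beta cells, and 12235 and 19775 in delta cells. The fold enrichment was 4.07 and 5.11 in alpha cells, 4.41, 3.97 and 6.33 in beta cells, and 9.22 and 6.25 in delta cells. Both delta libraries ranked it above both alpha libraries and the beta libraries lay across both ranges, with an exact permutation p of 0.267. In both alpha libraries a called peak reached over the Mir200c hairpin, which it did in no beta or delta library, and the Mir141 hairpin was covered in beta 2 only.

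The summit sequence is shown because the miR-200 family and the Zeb factors are known to repress each other. It is printed on the strand of both hairpins with CACCTG and CAGGTG in capitals.
Mir200c upstream region (chr6:124718789-124718988, minus strand, mm10): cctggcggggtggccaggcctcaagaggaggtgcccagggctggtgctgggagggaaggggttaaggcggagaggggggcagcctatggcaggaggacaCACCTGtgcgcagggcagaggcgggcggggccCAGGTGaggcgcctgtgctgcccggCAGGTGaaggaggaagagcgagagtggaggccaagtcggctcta

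It held CACCTG at 3 places, as the Mir375 region did, and 70.0% of its bases were G or C. The other 3 motifs did not match. A match of this kind describes the letters of the sequence and was not set against any measure of binding.

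The strongest peak in the window of Mir141 and Mir200c lay elsewhere, 6130 bp downstream of Mir200c over the promoters of Emg1, a gene of ribosome assembly, and Phb2, which codes for a prohibitin. It ranked 6443 and 5244 in alpha cells, 2871, 2812 and 3894 in beta cells, and 3576 and 8795 in delta cells. In ranks the beta libraries were stronger than the alpha libraries without overlap, and the delta libraries lay on either side of the alpha libraries. In fold enrichment and in -log10 q the alpha and beta libraries overlapped, and alpha 2 lay above every beta library in both. The exact permutation p of the ranks was 0.19. Without delta 1 the exact permutation p was 0.0167, the smallest that design allows, with delta 2 alone for its cell type and the spread taken from the alpha and beta libraries only. The rank of this window therefore describes the promoter of Emg1 and Phb2 and not the chromatin upstream of the hairpins.

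Merged across libraries, the peaks of the windows formed 48 regions. More than 1 library called 23 of these, which were between 205 and 1755 bp long. In both alpha replicates 19 of the 23 were called, or 82.6%, where 47.9% of the regions in the windows of all miRNA genes were. In at least 2 beta replicates the count was 14, or 60.9%, against 50.3%, and in both delta replicates it was 17, or 73.9%, against 45.8%. All 7 libraries shared 8 regions, or 34.8%, against 22.7%. With strong peaks only, the counts were 17 of 19 against 69.3% in alpha cells, 9 of 19 against 47.1% in beta cells and 11 of 19 against 64.5% in delta cells, so that the share of beta cells lay close to the background and that of delta cells below it. Of the 23 regions, 10 lay within 1 kb of an annotated transcript start and 6 of these were called in all 7 libraries. Of the 13 away from a start 2 were. The same split was not counted over the regions around all miRNA genes, so it does not tell these windows from the background.

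**Figure D3:**
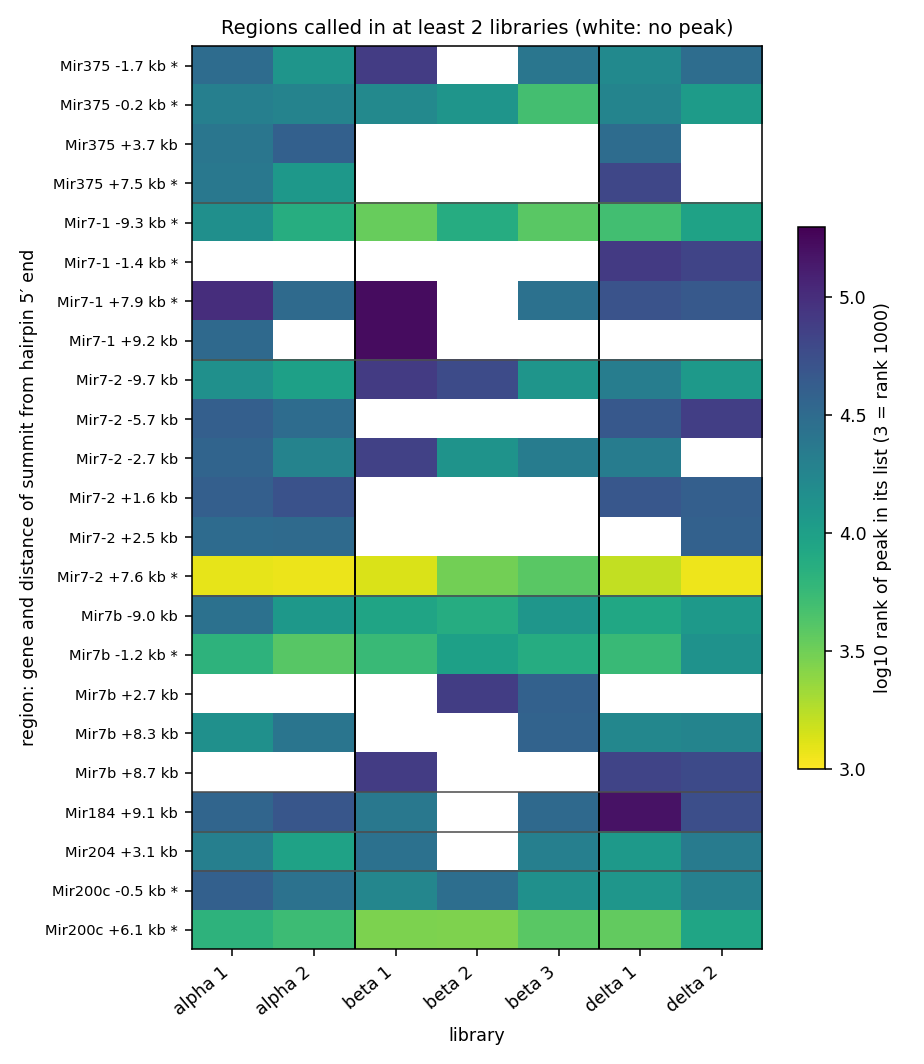
Log10 rank of the peak of each library in the 23 regions called in at least 2 libraries, named by gene and by the distance of the summit from the hairpin 5′ end. White cells hold no peak, vertical lines separate alpha, beta and delta libraries, and asterisks mark regions within 1 kb of an annotated transcript start. The 8 regions without a white cell were called in all 7 libraries, and 5 regions are filled in both alpha libraries and white in all 3 beta libraries.

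Regions that were present in both alpha replicates and absent from every beta list numbered 5 of 23, or 21.7%, against 6.29% of the regions around all miRNA genes. They were the regions 3745 and 7467 bp downstream of Mir375 and the regions 5699 bp upstream and 1575 and 2533 bp downstream of Mir7-2, so all lay in 2 windows. The opposite pattern, at least 2 beta and no alpha replicates, was found once, or 4.35%, against 11.6%. Between delta and beta cells, 3 regions, or 13.0%, were called in both delta and no beta replicates against 5.32%, and 1 region, or 4.35%, in at least 2 beta and no delta replicates against 9.98%. The beta lists held fewer strong peaks than the others, and by the quality table of the study the beta libraries also held fewer unique reads than the alpha libraries. The part of either in the counts was not tested. Without beta 1 the alpha regions absent from beta cells were 5 of 22 against 14.9% of all, and with strong peaks only they were 4 of 19 against 13.6%.

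Without the beta libraries, the counts between alpha and delta cells were small and do not tell the windows from the background. No region was called in both alpha and no delta replicates, against 4.89% around all miRNA genes, and 2 regions, or 8.7%, were called in both delta and no alpha replicates, against 4.35%. Those were the weak regions 1431 bp upstream of Mir7-1 and 8738 bp downstream of Mir7b, the latter also called in beta 1.

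Tested region by region, 3 of the 23, or 13.0%, had an exact permutation p of at most 0.05, against 6.61% of the 113375 regions tested over the genome. They were the Cryba2 promoter region near Mir375 and the regions 5699 bp upstream and 1575 bp downstream of Mir7-2, all of them among the 5 above. Without any 1 beta library no region can reach this level.

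The loci were spread over the stronger part of all miRNA genes. By the median over 7 libraries of the rank of its strongest peak, Mir7-2 stood at percentile 97.9 of the 1962 genes, Mir141 and Mir200c at 92.8, Mir7b at 88.8, Mir7-1 at 87.3, Mir375 at 80.3, Mir204 at 72.2 and Mir184 at 63.6. The order is that of the strongest peak of a window, which at Mir7-2, Mir141 and Mir200c was the promoter of a neighbouring protein-coding gene. At Mir7-1 it lay over transcript starts of Rmi1 and of Hnrnpk, whose intron carries the hairpin. At Mir375 its place differed between libraries. In alpha 2 it lay 7467 bp downstream at the start of Cryba2, in delta 1 it lay 1649 bp upstream, and elsewhere it lay 190 to 509 bp upstream. The miRNA genes whose ranks were most like those of Mir375 over the 7 libraries were Mir7055, Mirlet7i and Mir5100, with a mean absolute difference in log10 rank of 0.0748, 0.0973 and 0.102.

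**Figure D4:**
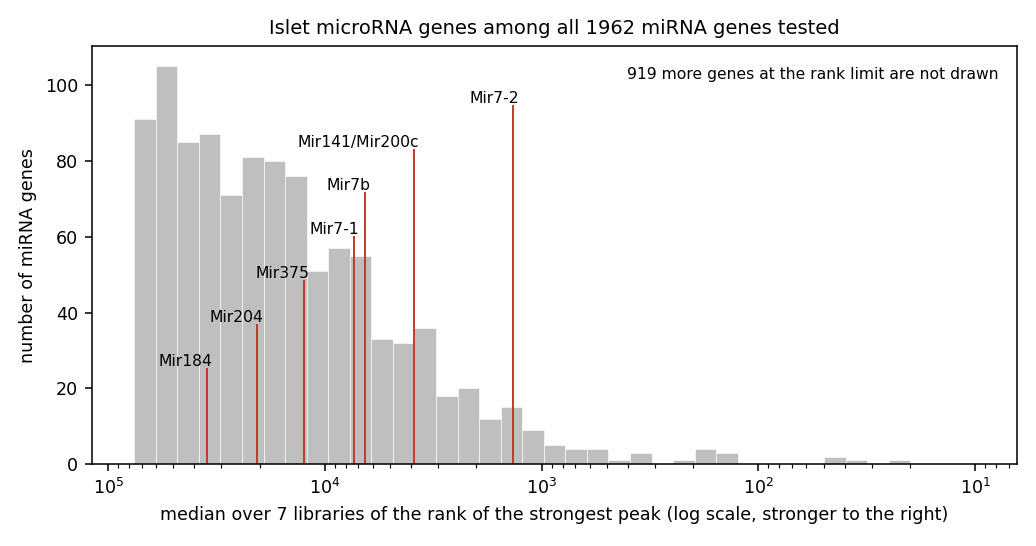
Histogram of the median rank of the strongest peak over 7 libraries, on a log axis with stronger peaks to the right, for the 1043 miRNA genes with a median inside the rank limit. A further 919 tested genes had a median at the limit and are not drawn. Red lines mark the islet microRNA genes, which run from a median rank of 35136 for Mir184 to 1352 for Mir7-2.

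The second miR-200 cluster, Mir200a, Mir200b and Mir429 on chromosome 4, shares the seeds of miR-141-3p and miR-200c-3p. Its 3 genes had a common strongest peak, at ranks 15371 and 6804 in alpha cells, 12828, 10368 and 5803 in beta cells, and 6350 and 6743 in delta cells. It was strong in all 7 libraries and its ranks overlapped between the cell types (exact permutation p = 0.571).

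MicroRNA genes known from other cell types varied. Mir216a, Mir216b and Mir217 of acinar cells had no strong peak in any library, nor had Mir223 of blood cells. Mir126a of endothelial cells had one in alpha 2 only, and Mir142 of blood cells had one in both delta libraries, at ranks 31179 and 32043. Mir143 and Mir145a, known from smooth muscle and fibroblasts, had such a peak in 5 and 7 libraries, and of the muscle genes Mir206 had one in 6 libraries and Mir1a-1 in 1.

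Most genes that make and use microRNAs had a peak at their transcript start in the 3 cell types. Of 14 such genes, 13 had one in all 7 libraries and 10 had a strong one in all 7, against the 31.1% of all protein-coding genes. Drosha, the nuclear nuclease, ranked between 84 and 386, and its partner Dgcr8 between 437 and 2316. Dicer1 ranked between 6925 and 16183. Among the Argonaute genes, Ago2, the one that cuts its targets, ranked from 9483 in delta 1 to 39117 in beta 2, and Ago1, Ago2 and Ago3 each had a strong peak in 6 libraries. Ago4 had a peak in 4 libraries and a strong one in alpha 2 only, so that it was the member of the family with the fewest calls.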

How the data were processed

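ATAC-Seq peak lists of 7 libraries were analysed, grouped by their deposited labels. Per the labels and methods, single-end reads were checked with FastQC, trimmed (Trimmomatic), aligned to mm10 without the mitochondrial genome (Bowtie 2), cleared of blacklisted regions after Picard had marked duplicates, and passed library by library to MACS2, with versions, threshold and any Tn5 shift not given in the sources used here. The deposited -log10 p and -log10 q values, the fold enrichment (a ratio to local background) and the score, made by the authors with MACS2, were compared between libraries only as ranks or within a list. The lowest -log10 p was 2.01 in every list. The lists hold no reads outside peaks, so no limit of detection could be set for an absent call. The study's supplement gives reads per library, which were not used here in any test.

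Rows that repeat an interval were counted once. Overlapping peaks (1 bp or more) of different libraries were joined into regions, the same as bedtools 2.31.1 gave. Ranks were tested by an exact permutation test of the sum of squares between cell types, which has no direction, with Benjamini-Hochberg adjustment over the 1962 miRNA genes or 113375 regions, in Python 3.11.15, numpy 2.4.6 and pandas 2.3.3, and the test was checked on simulated data. The 240 other miRNA genes had no peak inside the rank limit. Genes came from GENCODE vM21, and sequences from RefSeq and its GRCm38.p6 genome. Named were the 8 members, the protein-coding genes in their windows, the regions of at least 2 replicates and the listed genes. Summit sequences were 200 bases around the strongest summit, for the 4 loci with the nearest region of at least 6 libraries. Members, lists and tests were chosen with earlier results of these data known, and the tests of single regions, the count of alpha regions absent from beta cells and the leaving out of peaks near transcript starts were added after seeing the data.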

Additional observations from a re-analysis of the deposited data

How the results depend on the processing

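The number of loci with an exact permutation p of at most 0.05 was 1, against 7.19% of all miRNA genes tested. It was 0 with a window of 5 kb, with percentiles within a list and with libraries permuted only within sex, against 6.31%, 2.37% and 4.08%. It was 2 when peaks were ranked by fold enrichment, against 7.75%, where Mir7-1 had an exact permutation p of 0.0476. Deviations of same-numbered libraries from their group means correlated between -0.107 and 0.171. With 2 libraries of a cell type these deviations mirror each other, so the values cannot show whether libraries were paired or shared animals. Over its alternatives the p of Mir184 ran from 0.00952 to 0.0833, with 0.0571 for percentiles and 0.0556 within sex. With the replicate block the count was 0, but the smallest p this design allows is 0.0556, the value of Mir184. Leaving out 1 library gave 0 to 2 loci, against 0.0% to 5.53% of all miRNA genes tested. Regions open in alpha cells (19) numbered 18 to 23 with a library left out, the lowest being 18 of 23 without beta 3, against 51.6%. In a 5 kb window they were 9 of 11, against 50.8% of the regions around all miRNA genes. Regions open in beta cells (14) numbered 9 of 19 with a -log10 q of at least 2, against 47.1%. They were 9 of 22 where coverage of at least 0.5 of a region was asked for, against 34.2%, and 7 of 11 in a 5 kb window, against 52.6%. With a library left out they numbered 9 to 14, the lowest without beta 3, against 36.2%. Regions open in delta cells (17) numbered 11 of 19 with a -log10 q of at least 2, against 64.5%, and 7 of 11 in a 5 kb window, against 48.5%. With a library left out they numbered 16 to 21, the lowest being 16 of 23 without beta 3, against 49.3%. Regions of all libraries (8) numbered 3 by coverage, 3 in a 5 kb window and 8 to 12 with a library left out, the highest without beta 2. Alpha regions absent from beta cells (5) numbered 4 of 19 both with that q limit, against 13.6%, and among 50000 peaks per list, against 9.27%. With a library left out they numbered 5 to 9. The lowest was 5 of 22, against 6.72% without delta 2 and 14.9% without beta 1, and the highest was without alpha 1. Hairpins under a peak (1) numbered 1 to 2, the latter without alpha 1 or delta 2. A narrower window holds fewer regions, and 2 libraries of each cell type allow no p below 0.0667. With an alpha or delta library left out, a call in the 1 remaining replicate of that cell type was enough, where 2 were asked for otherwise. Regions called in that library alone were then counted too. This looser rule applied to the highest counts of alpha regions, delta regions, alpha regions absent from beta cells and hairpins. No share over all miRNA genes was counted on the same rule. The cause of the other changes was not tested. The lists hold no reads, so an absent call cannot be told from one missed in a thin library.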

Other observations

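In the windows of the 8 genes, 25 regions were called in 1 library only. Beta 1 held 9 of them and beta 2 held 7. Of the 25, 5 had a -log10 q of at least 2, and these were 2 regions of alpha 2, near Mir7-2 and Mir200c, and 3 regions of beta 2, near Mir375, Mir184 and Mir200c. The highest -log10 q among them was 4.28, at the region of alpha 2 near Mir7-2. Of the 5 regions called in 6 libraries, 4 lacked a call in beta 2 alone and 1 in delta 2 alone.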
